A study of Mus musculus with 16 samples.

Results

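The samples compared were the 6 ATAC-seq libraries of LC3-GFP negative CD8+ T cells, of 16 samples in the series: 4 from cells recovered out of tumours and 2 from cells sorted before transfer. They were chosen by their labels alone. In ATAC-seq the Tn5 transposase cuts accessible DNA, so a peak marks a stretch of open chromatin. Overlapping peaks of the 6 libraries, sharing 1 bp or more, were joined into regions. A region with a peak in all 4 tumour libraries and in neither library before transfer is called gained here, and a region with a peak in both libraries before transfer and in no tumour library is called lost. These are presence calls without a test for any single region, since the deposited lists hold peaks and not reads.

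The donor mice were Pmel-LC3-GFP-RFP animals, whose T cells recognise a melanocyte antigen and carry a fluorescent LC3 reporter. After purification the cells were activated over 3 days by CD3 and CD28 antibodies (2 µg/ml each) together with IL2 (100 IU/ml), exposed to carbon monoxide (CO) for 24 h and sorted on the reporter. The 2 libraries before transfer come from that sort, and the labels do not say whether they are separate animals or cultures. For the 4 tumour libraries, LC3-GFP negative cells were injected into C57BL/6 mice with B16-F10 melanoma of 12 days, and Vβ13+CD8+ cells were isolated from the tumours 15 days after transfer, 1 mouse for each library. All groups had received CO. The sort at recovery used Vβ13 and CD8 and not the reporter, and host CD8+ cells with the same receptor chain would pass it. Time in the tumour, the second sort and the experiment in which peaks were called differ together between the groups and cannot be told apart.

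When a T cell is activated, distal elements around genes for transcription factors, receptors and effector molecules open or close, while most promoters stay accessible. In CD8+ T cells, factors such as LEF1, BACH2 and FOXP1 are tied to naive and memory states, T-bet and BLIMP-1 to effector differentiation, and TOX to the exhausted state of chronically stimulated cells. LC3 is the protein that decorates autophagosomes, the vesicles that carry cell contents to the lysosome. The comparison asks how the chromatin of Vβ13+CD8+ cells from tumours of mice given LC3-GFP negative cells differs from that of LC3-GFP negative cells before transfer. For the tumour libraries, LC3-GFP negative or positive names the cells as transferred and not their state at recovery.

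Most called regions lay away from promoters, but 6 promoters show the pattern directly, and the 250 bases before their start are given below, from RefSeq on GRCm38.p6, the assembly that mm10 names. Gzmc (a granzyme of cytotoxic T cells, minus strand, chr14:56234658-56234907), Samd3 (plus strand, chr10:26229457-26229706), Gm33332 (minus strand, chr10:19718808-19719057) and Itgam (the CD11b integrin chain, plus strand, chr7:128062390-128062639) had gained promoters. Il21 (the cytokine interleukin 21, minus strand, chr3:37232637-37232886) and Pax5 (the B cell identity factor, minus strand, chr4:44710695-44710944) had lost promoters. Capitals mark matches on either strand to AP-1 TGANTCA, RUNX TGTGGTT, ETS ACAGGAAG, T-box AGGTGTGA, NFAT TGGAAA or CRE TGACGTCA.
Gzmc: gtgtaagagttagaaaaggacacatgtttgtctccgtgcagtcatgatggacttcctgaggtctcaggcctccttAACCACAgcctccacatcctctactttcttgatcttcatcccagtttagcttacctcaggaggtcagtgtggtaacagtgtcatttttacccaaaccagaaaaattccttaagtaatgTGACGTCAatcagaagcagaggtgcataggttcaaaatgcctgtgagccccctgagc
Samd3: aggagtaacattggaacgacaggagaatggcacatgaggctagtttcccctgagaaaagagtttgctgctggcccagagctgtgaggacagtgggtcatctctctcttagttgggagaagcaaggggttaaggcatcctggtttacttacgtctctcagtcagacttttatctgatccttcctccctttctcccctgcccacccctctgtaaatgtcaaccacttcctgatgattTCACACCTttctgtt
Gm33332: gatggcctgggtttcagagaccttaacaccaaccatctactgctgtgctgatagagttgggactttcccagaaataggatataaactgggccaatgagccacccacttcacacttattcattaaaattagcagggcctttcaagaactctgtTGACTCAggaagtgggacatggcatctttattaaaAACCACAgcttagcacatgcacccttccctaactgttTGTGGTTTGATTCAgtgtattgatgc
Itgam: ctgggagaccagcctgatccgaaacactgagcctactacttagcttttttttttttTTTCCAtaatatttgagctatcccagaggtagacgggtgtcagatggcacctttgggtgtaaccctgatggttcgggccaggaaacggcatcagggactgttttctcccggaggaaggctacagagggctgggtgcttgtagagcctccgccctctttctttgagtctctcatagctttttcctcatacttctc
Il21: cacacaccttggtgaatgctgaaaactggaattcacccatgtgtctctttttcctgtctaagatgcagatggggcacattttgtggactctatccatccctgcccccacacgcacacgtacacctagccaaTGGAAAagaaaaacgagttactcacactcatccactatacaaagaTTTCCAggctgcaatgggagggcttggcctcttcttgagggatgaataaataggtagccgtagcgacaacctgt
Pax5: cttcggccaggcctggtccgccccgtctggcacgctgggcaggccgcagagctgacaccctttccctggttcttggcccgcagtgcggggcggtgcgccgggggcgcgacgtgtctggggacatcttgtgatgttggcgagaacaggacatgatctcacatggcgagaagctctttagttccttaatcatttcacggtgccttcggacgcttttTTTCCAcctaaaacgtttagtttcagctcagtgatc

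The Gzmc promoter held a RUNX match beginning 175 bases before the start and a CRE match beginning 57 bases before it. Gm33332, a predicted gene inside the Il20ra locus, held 2 AP-1 matches, beginning 98 and 19 bases before the start, and 2 RUNX matches, beginning 63 and 26 bases before it. The second RUNX match directly adjoins the second AP-1 match. Samd3 had a T-box match 15 bases before the start, and NFAT matches were the only ones in Itgam (1), Il21 (2) and Pax5 (1).

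Across promoter windows of 300 bases (250 before the start and 50 after it), 32 windows of 31 genes lay in gained regions, 262 windows of 231 genes in lost regions and 13062 in regions open in every library, of 32619 windows in all. The ETS motif was found in 8 of 32 gained windows (25.0%), against 5.73% of lost, 3.48% of always-open and 3.6% of all windows. Without tumour replicate 2, the share was 15 of 59 (25.4%). RUNX matches stood in 4 of 32 gained windows (12.5%) and, without replicate 2, in 12 of 59 (20.3%), against 5.29% of all windows. Other motifs also stood above all windows in the 32 gained ones: NFAT in 11 (34.4%, against 21.6%), KLF in 4 (12.5%, against 3.57%) and CRE in 4 (12.5%, against 1.8%). TCF-LEF matches were in 0 of 32, against 5.14% of all windows. AP-1 matches were found in 42 of 262 lost windows (16.0%) and 3 of 32 gained (9.38%), against 4.72% of always-open and 7.85% of all windows, and without replicate 2 in 11.9% of lost and 10.2% of gained windows. The E-box CAGCTG stood in 66 lost windows (25.2%) and 2 gained windows (6.25%), against 16.4% of all, and without replicate 2 in 22.9% of lost and 11.9% of gained windows. Always-open promoters are rich in CpG, with a median of 22 CpG in the window, against 6 in gained and 7 in lost windows. Among windows with at most 10 CpG the ETS shares were 30.4% of gained (7 of 23), 8.39% of always-open and 4.44% of all. The AP-1 shares there were 21.4% of lost, 13.0% of gained (3 of 23), 11.1% of always-open and 10.8% of all. Without replicate 2 they were 16.6% of lost and 13.6% of gained windows. The CAGCTG shares with all libraries were 23.2% of lost, 8.7% of gained, 18.7% of always-open and 17.9% of all. The RUNX shares there were 13.0% of gained (3 of 23), 9.02% of always-open and 7.06% of all. KLF and CRE matches were each in 1 of the 23 gained windows. These counts are of letters in the reference, and some windows belong to the same gene and overlap.

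1 tumour library stood apart from all others, and it bears on every count that follows. Similarity was measured by the Jaccard index, the bases covered by peaks of both libraries divided by the bases covered by either. Tumour replicates 1, 3 and 4 had indices of 0.652 to 0.734 with each other, and the pair before transfer had 0.706. Tumour replicate 2 reached only 0.392 to 0.423 with the other tumours, a range that spans the 0.407 and 0.412 it had with the libraries before transfer. The other 3 tumour libraries had 0.499 to 0.537 with the libraries before transfer, so they resembled each other more than the starting cells. Of its merged regions, tumour replicate 2 held 18011 (32.9%) that no other library had, against 364 to 1975 in the other tumours.

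**Figure D1:**
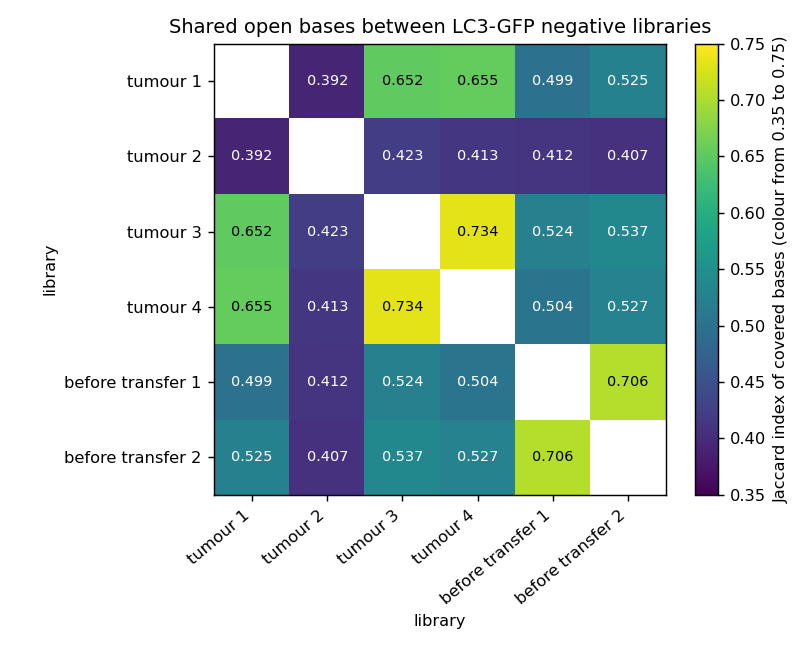
Jaccard index of covered bases for each pair of the 6 LC3-GFP negative libraries, as number and colour, with the diagonal left blank. Tumour replicate 2 is at 0.392 to 0.423 in every pair, while tumours 1, 3 and 4 reach 0.652 to 0.734 with each other and the pair before transfer 0.706.

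The number of peaks was 41435, 55171, 35758 and 33704 in tumour replicates 1 to 4, and 56476 and 49634 before transfer. Tumour replicate 2 lay between the libraries before transfer, and the other 3 tumours lay below both. The means were 41517 ± 9672 (SD, n = 4) and 53055 ± 4838 (SD, n = 2), a difference that an exact two-sided permutation test did not separate (p = 0.267). With 15 assignments of the libraries the smallest p is 0.0667, so no result of this design can pass 0.05. Without replicate 2 the tumour mean was 36966 ± 4004 (SD, n = 3) and the exact p was 0.1, the smallest that 10 assignments allow. Peaks covered 36.6, 59.7, 42.0 and 37.7 Mb in the tumour libraries and 56.4 and 47.5 Mb before transfer (exact p = 0.4). Similarity was 0.568 within and 0.492 between conditions (exact one-sided p = 0.133), and 0.687 and 0.519 without replicate 2 (exact p = 0.1). Over the family of 5 measures, the Benjamini-Hochberg values of these exact tests were 0.4 with all libraries and 0.125 without replicate 2, apart from median peak length (0.4).

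The promoter share of peaks was 28.5%, 21.9%, 31.2% and 32.7% in the tumours and 21.5% and 24.0% before transfer. The 3 tumours other than replicate 2 lay above both libraries before transfer. The number of promoter peaks itself moved little, 11012 to 12062 in the tumours against 12132 and 11896, so the share followed the number of peaks elsewhere. With equal numbers of top peaks in every library the difference in share was -0.0712 percentage points (tumour minus before), against 5.84 with all peaks. Read depth is unknown from these lists. The most frequent background pileup, read from the ratio of pileup to fold enrichment, was 1.6, 3.35, 2.16 and 1.7 in the tumours and 3.08 and 1.98 before transfer. It was highest in the 2 libraries with the most peaks, and its part in the counts was not tested.

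Cell type markers differed between the libraries as well. The list of T cell receptor and CD8 genes had promoter peaks at 16 or 17 of 17 members in all 6 libraries, Cd3d, Cd3e, Cd3g, Cd8a and Cd8b1 among them, as the label CD8+ T cells requires. Genes of macrophages, monocytes and dendritic cells had 37 peaks over their loci in tumour replicate 2, against 19, 14 and 13 in the other tumours and 23 and 18 before transfer. Promoters of Lyz2 (lysozyme), C1qb (complement) and Csf3r (the G-CSF receptor) were open in tumour replicate 2 and in none of the other 5 libraries. Melanoma and stroma genes had 34 peaks in tumour replicate 2, against 18, 12 and 12 in the other tumours and 27 and 22 before transfer. Of the 34, 13 lay at Mitf. Dct had 2 peaks in tumour replicate 2 and none in the other 5 libraries, while Tyr and Tyrp1 had no peak in any library. Tumour replicate 2 also had 3 peaks on the Y chromosome, against 12 to 17 in the other 5 libraries. The part of other cells in its peaks was not tested, and results are therefore given with and without it. The X chromosome also held runs of gained regions, which every tumour library had and neither library before transfer. They lay from chrX:50565041 to chrX:50623434 and from chrX:75729577 to chrX:75759708, and a further gained region lay at chrX:103481015-103482555. The part of other cells in these regions, and in the tumour libraries besides replicate 2, was not tested.

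**Figure D2:**
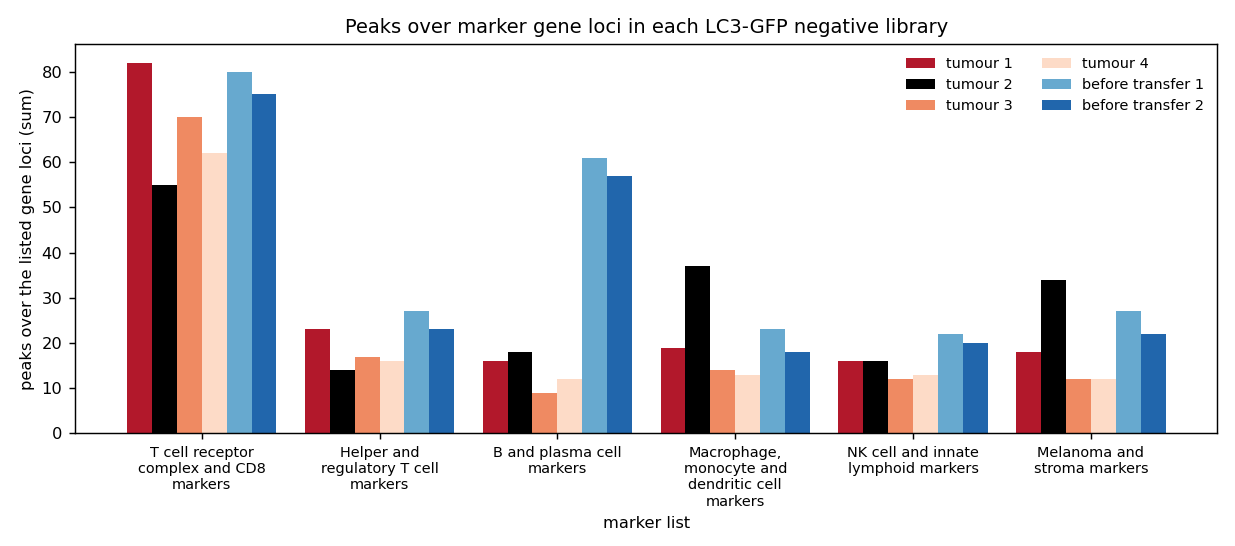
Sum of peaks over the loci of each marker list (vertical axis) in each of the 6 LC3-GFP negative libraries (bars). Tumour replicate 2 has 37 peaks over macrophage, monocyte and dendritic cell genes, against 13 to 23 in the other libraries, and B cell genes have 61 and 57 peaks before transfer against 9 to 18 in the tumours.

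Of 83283 merged regions, 595 (0.714%) were gained, 8509 (10.2%) were lost and 23846 (28.6%) were open in every library. Without tumour replicate 2 there were 65580 regions, with 1656 gained (2.53%) and 12184 lost (18.6%). Replicate 2 acts on both sides: of 1650 regions held by the other 3 tumours and absent before transfer it lacked 1055, and of 12111 absent from those tumours and present before transfer it held 3602. When each library gave only its 33704 top peaks by q-value, the size of the shortest list, 821 regions (1.42% of 57832) were gained and 4122 (7.13%) were lost. With both changes together the counts drew close, at 3795 gained (7.93% of 47874) and 5172 lost (10.8%). Lost regions outnumbered gained ones under each of these choices, but the ratio depended on how many peaks each library gave and on replicate 2. The rule is also uneven under each choice. A gain needed a peak in every tumour library used, while a loss needed a peak only in the fewer libraries before transfer. The part of this rule in the excess of lost regions was not tested. Leaving out replicate 1 before transfer gave 1117 gained regions, and leaving out replicate 2 before transfer gave 14212 lost ones.

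**Figure D3:**
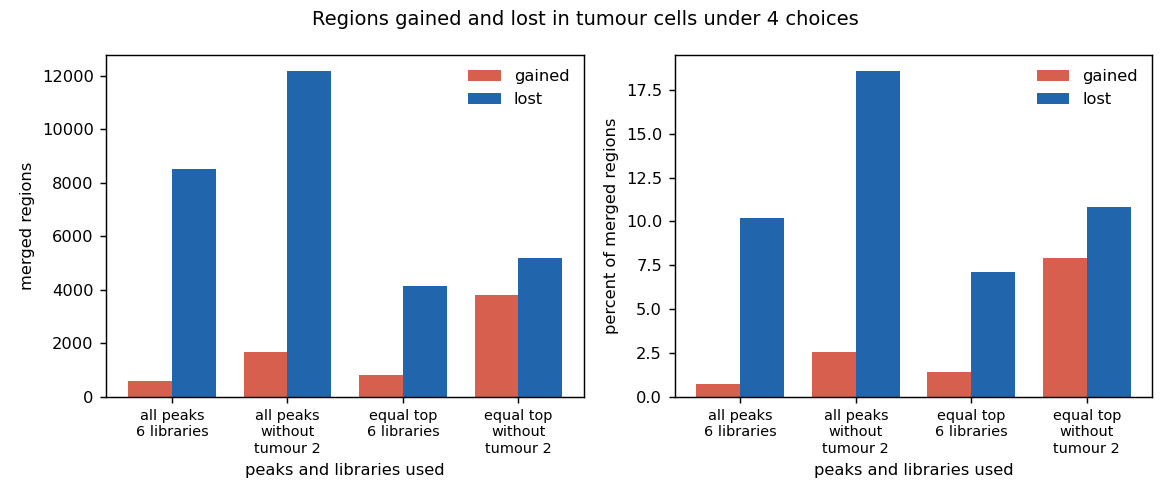
Gained and lost regions as counts (left axis panel) and as percent of merged regions (right panel) for all peaks or equal numbers of top peaks, with and without tumour replicate 2. Lost regions outnumber gained ones in all 4 pairs of bars, from 8509 against 595 with all peaks to 5172 against 3795 with equal peaks and without replicate 2.

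Both kinds of region were distal. Promoters, within 1 kb of a start, made up 4.2% of gained and 2.62% of lost regions, against 44.8% of always-open and 15.5% of all regions. Apart from promoters, 62.0% of lost regions lay in a gene body or the 2 kb upstream, against 44.5% of gained and 48.7% of all regions. Gained regions lay outside promoters, gene bodies and the 2 kb upstream in 51.3% of cases, against 35.4% of lost and 35.8% of all regions. Gained regions had a median length of 1132 bp and lost ones 782 bp. Ranked by the authors' fold enrichment within each library that held them, gained and lost regions had the same median rank of 55.8% from the top, against 37.5% for always-open and 56.6% for all regions. The fold enrichments quoted here are the authors' values for each peak against its own library's background, and they describe a peak within that library only.

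The LC3-GFP positive libraries, which the calls did not use, held many of the same regions in the same pattern. Among lost regions, 4589 (53.9%) were also in both positive libraries before transfer and in none of the 4 positive tumours, against 17.7% of all regions. Among gained regions, 162 (27.2%) also had the gained pattern in positive cells, against 1.76% of all regions, and 279 (46.9%) were in every positive tumour. Opposite patterns were seen for 17 gained and 41 lost regions. Without tumour replicate 2 the shares were 30.4% of gained (503 regions) and 57.7% of lost (7026 regions), against 2.23% and 20.3% of all. At equal peak numbers the gained share was lower, 65 of 821 (7.92%, against 2.28% of all regions), and the lost share was 68.7% (against 16.9%). Called in positive libraries alone, 1644 regions were gained (2.25%) and 18105 were lost (24.8%), of which 163 (9.91%) and 4559 (25.2%) overlapped calls in negative cells. A difference between positive and negative cells in this change was not tested here.

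Among genes with at least 1 region in their body or 2 kb upstream, 275 of 15985 (1.72%) had a gained region and 3388 (21.2%) a lost one, with 159 (0.995%) having gained regions only and 3272 (20.5%) lost regions only. Without tumour replicate 2, 707 (4.6%) of 15371 had a gained and 4317 (28.1%) a lost region. Taking equal numbers of peaks, they were 441 (2.9%) and 1917 (12.6%) of 15184, or 1673 (11.4%) and 2300 (15.7%) of 14692 when replicate 2 was also left out. Genes with regions of only 1 kind had a median of 5 regions, against 2 over all genes, so loci with many regions are more often among them. Lists are therefore read by regions beside these backgrounds.

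The locus with the most lost regions was Ebf1, the early B cell factor (chr11:44618100-45008096). It held 3, 1, 3 and 2 regions in tumour replicates 1 to 4 against 26 and 25 before transfer, and 22 of its 27 regions were lost. They were spread over the gene from 4.48 to 388 kb after a start, with fold enrichments up to 7.53 in the libraries before transfer. At equal peak numbers 8 of 17 were lost, with and without replicate 2. Pax5 had 5 of 9 regions lost, including its promoter, Bank1 (a B cell scaffold protein) 3 of 10 and Blk (a B cell kinase) 3 of 6, of which Bank1 kept 1 and Pax5 and Blk none at equal peak numbers. The B and plasma cell list had 37 of 72 regions lost (51.4%, against 10.2% of all regions) and none gained. Its loci held 16, 18, 9 and 12 peaks in the tumours against 61 and 57 before transfer. The same loci held 101 and 90 peaks in the positive libraries before transfer and 9 to 19 in the positive tumours. At equal peak numbers 12 of the list's 39 regions were lost (30.8%, against 7.13%).

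RNA of the B cell genes named here was low beside that of Cd8a in separate libraries of LC3-GFP negative cells before transfer. Ebf1 was at 0.631 and 0.137 CPM (counts scaled to a common library total) and Cd79a (a B cell receptor chain) at 0.126 and 0.137. Cd79b, its partner chain, was at 3.72 and 5.15 CPM, against 568 and 607 for Cd8a. Pax5 was not listed in the RNA table. Cd79a and Jchain had no peak in any of the 6 ATAC libraries, and the Ebf1 promoter itself was open in all of them. Promoters of 10 and 9 of the 13 list members had a peak before transfer, against 2 to 5 in the tumours. The part of B cells in the ATAC libraries was not tested. In bulk libraries like these, fewer cells of a type and less accessible chromatin per cell cannot be told apart.

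**Figure D4:**
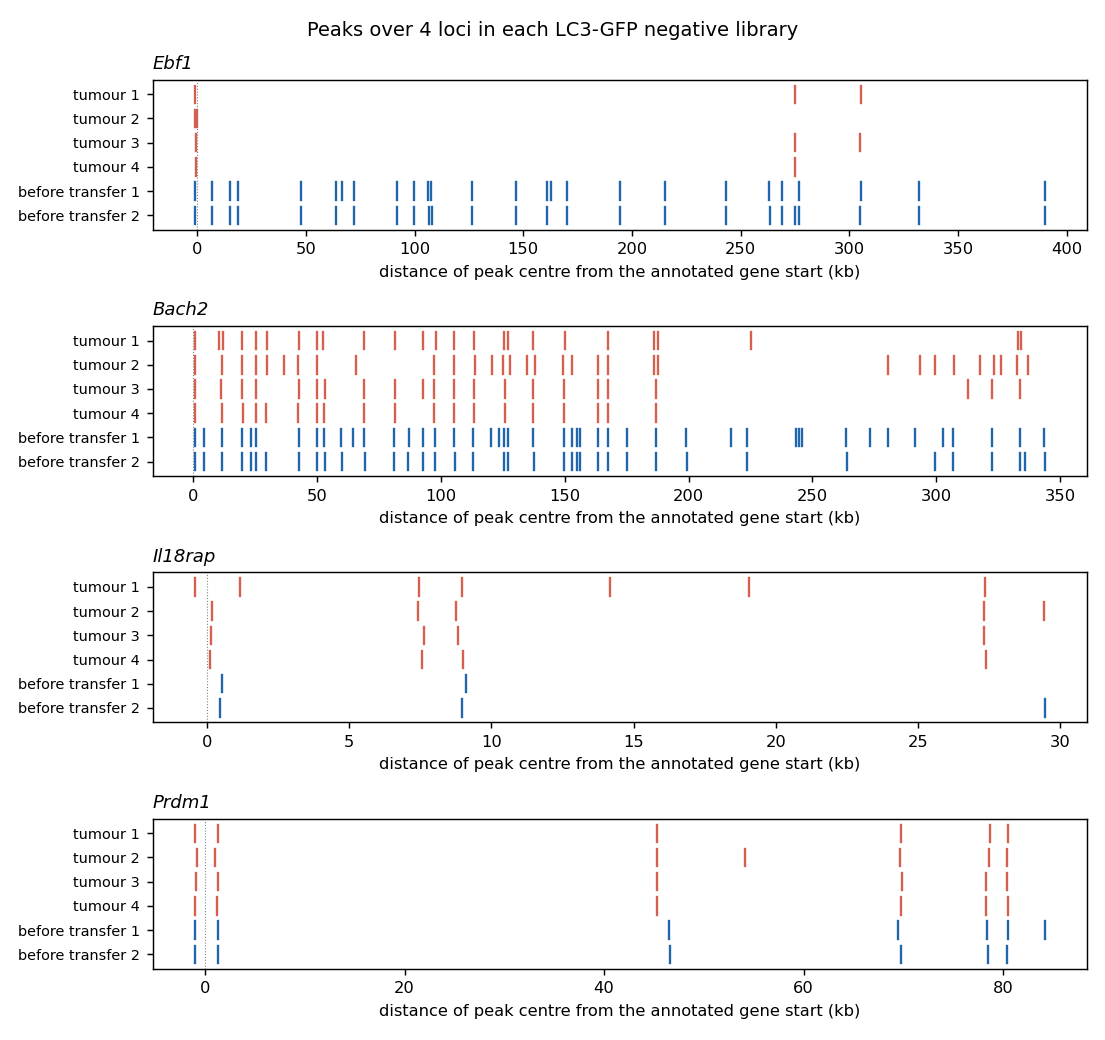
Centres of peaks (ticks) over Ebf1, Bach2, Il18rap and Prdm1 in each LC3-GFP negative library, by distance from the annotated gene start in kb. At Ebf1 the tumour libraries have 2 or 3 peaks against 26 and 25 before transfer, and at Il18rap 2 positions carry a peak in all 4 tumours and in neither library before transfer.

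Transcription factors of naive and memory T cells also lost regions in number. Foxp1 (chr6:98925342-99522746), which supports T cell quiescence, held 36, 41, 39 and 35 regions in the tumours against 66 and 56 before transfer, and 16 of its 82 regions were lost. Bach2 (chr4:32238413-32586109), a repressor of effector genes, held 21, 31, 22 and 19 against 45 and 37, with 11 of 58 lost. In both genes every tumour library lay below both libraries before transfer, which was also so for 12.0% of all genes with a region (1921 of 15985) and for 30.5% of genes with at least 10 regions (350 of 1146). Genes named here for most lost regions were chosen on these same libraries, so their separation is a description only. The lost Bach2 region with the highest fold enrichment before transfer (6.87 and 7.2) lay at chr4:32501627-32502560 and was absent from all 4 positive tumours. Tcf12, an E protein, held 4, 13, 5 and 3 against 22 and 19, with 10 of 26 lost. Lef1, a partner of β-catenin, held 8, 6, 9 and 8 against 20 and 14, with 7 lost, 1 of them at a promoter, and 1 gained.

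The memory and stemness list as a whole had 59 of 327 regions lost (18%, against 10.2% of all) and 3 gained. Against 21.2% of all genes with a region, 11 of 24 members (45.8%) had a lost region. Bcl2 (4 lost), Ikzf1 (5 lost) and Foxo1 (2 lost) were among them, and Klf3 had a gained region only. At equal peak numbers the list's lost share was 16 of 229 (6.99%), near the background of 7.13%. With equal peaks and without replicate 2, Foxp1 had 5 gained and 5 lost regions, Bach2 2 gained and 4 lost, and Lef1 2 of each. The excess of lost regions at Foxp1 and Lef1 was therefore gone under that choice. RNA of these genes was well above the B cell genes before transfer, at 172 and 173 CPM for Foxp1, 68.4 and 79.4 for Bach2 and 185 and 194 for Lef1.

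Tox (chr4:6686353-6991557), the factor tied to exhaustion, held 7, 5, 4 and 4 regions in the tumours and 21 and 15 before transfer. Of its 24 regions, 9 were lost and none was gained, and with equal numbers of peaks 4 of 13 were lost (4 of 12 without replicate 2). Its RNA before transfer was 5.43 and 4.39 CPM. In positive tumours 1 of the 9 lost Tox regions, at chr4:6969705-6971096, had a peak in all 4 libraries, and 6 had none. The list of TOX, NR4A and exhaustion-linked factors had 17 of 120 regions lost (14.2%) and 1 gained. A lost region was found in 7 of 18 members (38.9%, against 21.2% of all genes with a region). Inhibitory receptor genes had 6 of 85 regions lost (7.06%) and none gained: 2 each at Btla and Cd38 and 1 each at Entpd1 and Vsir. Both shares of regions, 14.2% and 7.06%, lie near the 10.2% of all regions.

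At Prdm1, the gene of BLIMP-1, a gained region (chr10:44482665-44483753) and a lost one (chr10:44481541-44482297) lay 368 bp apart. The gained region had fold enrichments of 9.26, 3.91, 8.9 and 8.29 in tumour replicates 1 to 4 and was in all 4 positive tumours and 1 of 2 positive libraries before transfer. The lost region had 3.65 and 3.63 before transfer and was in no positive library. Tbx21, the gene of T-bet, gained a region in its body (chr11:97109149-97110260, fold enrichments 2.91, 2.41, 1.97 and 2.0) and lost another. That gained region was in none of the 6 positive libraries. Neither Prdm1 call held at equal peak numbers, while Tbx21 still had 1 gained region. When replicate 2 was also left out, Prdm1 had 1 gained region and Tbx21 had 3. With all peaks, the gained Prdm1 region had a mean rank by fold enrichment of 20.98% from the top in the tumours. The gained Tbx21 region was at 97.2%, among the weakest peaks called there.

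Effector genes and activation and cytokine receptors had the highest shares of gained regions among the 22 lists with all peaks, resting on 3 and 6 regions. That order did not hold at equal peak numbers, with 1 of 17 regions of NK lectin-like receptors gained (5.88%). The effector list had 3 of 78 regions gained (3.85%, against 0.714% of all) and 3 lost. The promoter of Gzmc, whose sequence is given above, was open in the 4 tumours at fold enrichments of 8.36, 2.99, 7.28 and 6.52 (chr14:56234196-56235289), in 3 of 4 positive tumours and in no library before transfer. Gzmc RNA was already 47.8 and 48.7 CPM before transfer. Gzmc lies in a cluster of close granzyme copies, and how reads shared between copies were placed is not given in the sources used here. Klrg1, a receptor of terminal effector cells, had a gained region across the lower-coordinate end of the gene (chr6:122268896-122270677, the annotation used giving no strand) at 5.82, 4.59, 6.36 and 7.68, also found in all 4 positive tumours and in neither positive library before transfer. At equal peak numbers neither Gzmc nor Klrg1 had a gained region, and each had 1 when replicate 2 was also left out.

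The activation and cytokine receptor list had 6 of 106 regions gained (5.66%) and 6 lost (5.66%), in 5 and 5 of its 24 members. Each is 20.8% of members, against 1.72% of all genes with a region for gains and 21.2% for losses. Il18rap (chr1:40515362-40551707), the accessory chain of the IL-18 receptor, held 6, 5, 4 and 4 regions in the tumours against 2 and 3 before transfer, and 2 of its 7 were gained, but none at equal peak numbers, with or without replicate 2. Il18r1, the other chain of that receptor, Tnfrsf9 (4-1BB), Il12rb2 (an IL-12 receptor chain) and Cd44 each had 1 gained region, and Il12rb2 and Cd44 also had 1 lost. Il21 held no region in the tumours and 2 in each library before transfer, both near its start (fold enrichments 2.99 and 4.22 for the one over the promoter printed above), and neither was in a positive tumour. Both Il21 regions stayed lost with equal numbers of peaks and without replicate 2. At equal peak numbers the gained share of the list was 4.65% (background 1.42%) and that of the effector list 3.51%. Without replicate 2 the shares were 9.28% and 8.22% (background 2.53%).

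T cell receptor and CD8 genes had 3 of 105 regions gained (2.86%, against 0.714% of all) and 6 lost (5.71%, against 10.2%). At equal peak numbers 2.44% were gained (against 1.42%) and 8.54% lost (against 7.13%). Cd28, the costimulatory receptor, gained 1 region and lost 2. Among adhesion genes, Itgam gained its promoter region (6.0, 3.01, 4.95 and 3.42, all 4 positive tumours) and lost 2 regions in its body, and Itga1, the CD49a chain of resident cells, gained 1 and lost 1. Tgfbr3, a TGF-β co-receptor, held 6, 3, 6 and 6 regions against 19 and 15, with 9 lost, but 1 of 11 with equal numbers of peaks.

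**Figure D5:**
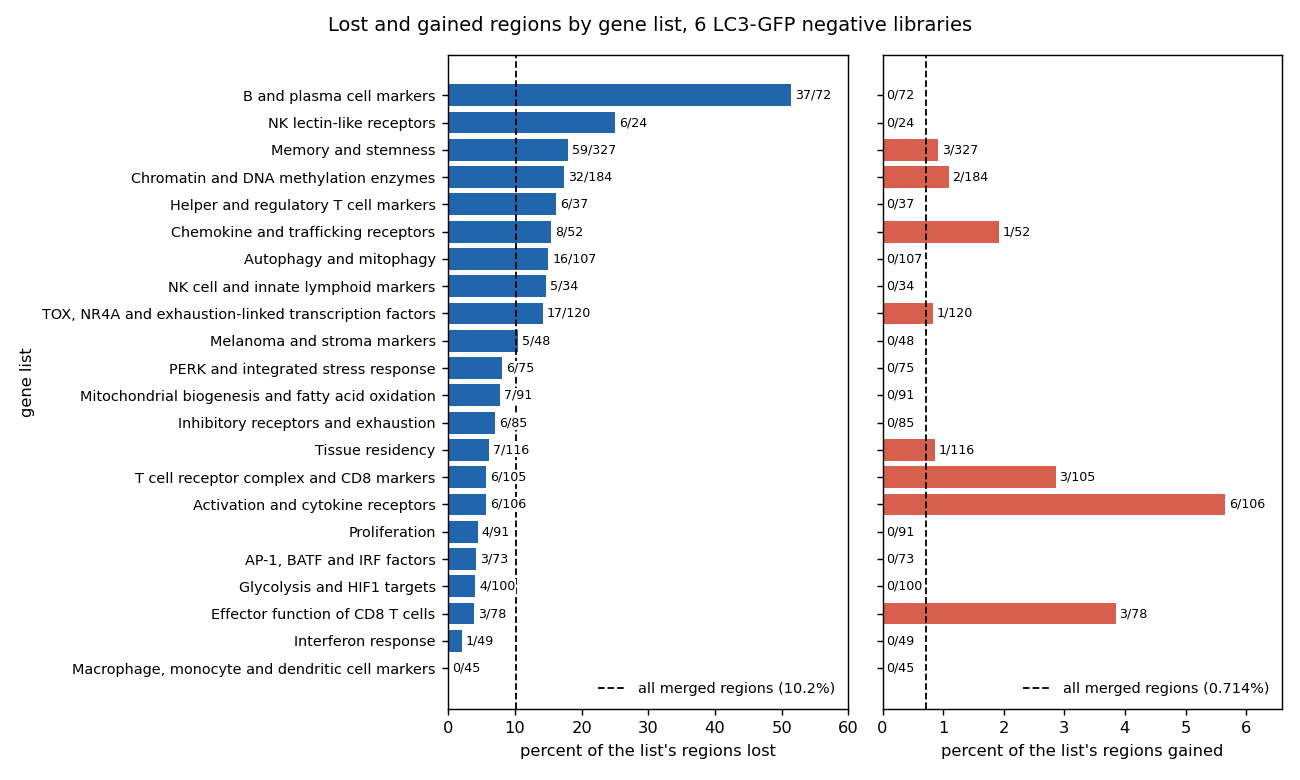
Percent of each list's regions lost (left) and gained (right) in tumour cells, with counts beside the bars and the percent over all merged regions as a dashed line. B and plasma cell genes lead the lost side with 37 of 72 regions, and activation and cytokine receptors lead the gained side with 6 of 106.

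Autophagy and stress genes, which bear on the sort itself, had lost shares of 15.0% and 8.0%, on either side of the background, and no gained region. The autophagy and mitophagy list had 16 of 107 regions lost (15.0%), in 8 of 32 members (25.0%, near the 21.2% of all genes with a region). Of these lost regions 6 lay at Atg7 and 4 at Atg5, both part of the LC3 conjugation machinery. Atg7 held 7, 13, 7 and 6 regions in the tumours and 17 and 15 before transfer. Atg5 held 1, 6, 1 and 1 against 7 and 5, so tumour replicate 2 lay within the range before transfer. None of the list's 76 regions was lost at equal peak numbers. The PERK and integrated stress response list had 6 of 75 regions lost (8.0%), among them 1 at Eif2ak3, which encodes PERK, and 2 at Phgdh, an enzyme of serine synthesis. Pik3c3, the lipid kinase that starts autophagosome formation and is not in that list, had a gained region (8.7, 7.01, 8.54 and 7.96, all 4 positive tumours and 1 of 2 positive libraries before transfer).

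Chromatin regulators had 32 of 184 regions lost (17.4%) and 2 gained. Hdac9 lost 7 regions, but tumour replicate 2 held 19 of its regions against 1 in each other tumour and 16 and 12 before transfer. Tet1, a DNA demethylase, held 2, 3, 2 and 2 against 7 and 6 and lost 4 of 8, and Ezh2, the Polycomb methyltransferase, lost 3 and gained 1. The chromatin list's lost share was 4.84% at equal peak numbers, below its background of 7.13%. Glycolysis, proliferation, AP-1 and interferon lists had lost shares of 4.0%, 4.4%, 4.11% and 2.04% and no gained region.

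Outside the lists, the genes with the most gained regions were Dnah12 (an axonemal dynein) and Gcnt2 (a glycan branching enzyme), with 3 each. Dnah12 held 6, 6, 7 and 8 regions in the tumours and 3 in each library before transfer, and its first 2 gained regions were in no positive tumour. Zic1, a transcription factor of neural tissue, held 2 regions in each tumour and none before transfer. Slc5a11, a sugar transporter, held 5, 2, 3 and 3 against none, with 2 gained, both in all 4 positive tumours. Neither Zic1 nor Slc5a11 had a gained region at equal peak numbers, against 1 and 2 when replicate 2 was also left out. Among gained regions within genes, the 5 with the best mean rank by fold enrichment lay in Cdk5rap1 (11.5, 7.8, 7.53 and 9.23), Dcun1d4, Ccdc146, Pik3c3 and Il20ra, and the first 2 were in every positive tumour and in neither positive library before transfer. On the lost side, Mad1l1 (11 regions), Nfia (11), Sorcs2 (10), Tmem108 (9) and Aff3 (9) followed Foxp1. Among lost regions within genes, those with the best mean rank lay in Grik4, Gon4l, Orc3, Atrnl1 and the overlapping predicted genes Gm31035 and Gm3696, where near-identical copies make the placement of reads uncertain.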

How the data were processed

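ATAC-seq peak lists of 12 libraries were used, 6 of them LC3-GFP negative. Per the submitters' processing notes, Partek, cutadapt, BWA and MACS2 were used on mm10, while versions, filters and any shift for the Tn5 cut are not given in the sources used here. The tables hold a separate peak list for every library. Values, as deposited and named per the file headers, are peak length in bp, the pileup signal, the ratio to local background (fold enrichment) and the −log10 of p and q, with 1.302 the smallest −log10 q. The authors deposited estimated counts for RNA (15850657 and 14567540 in the negative libraries), given here as CPM of the library total, without a test.

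Peaks were merged at 1 bp of overlap, and regions joined to RefSeq genes of GRCm38.p6 (body plus 2 kb upstream, promoter within 1 kb of a start). Python 3.11.15, pandas 2.3.3 and scipy 1.17.1 were used, with exact permutation tests over libraries, which measure only the spread between these samples. The calling code was checked on simulated peak lists with well separated sites and no missed peaks. That check covers the code only, not depth or weak peaks in the real lists. Named genes were the 10 with most gained and no lost regions and the reverse, up to 4 members with most called regions from each of 22 lists, and, among regions that overlap a gene, the 5 gained and 5 lost ranked best by fold enrichment. Genes named beyond these were chosen after their values were seen. Members, lists, motifs and rules were chosen with earlier results of these data known. In all, 20 motifs were searched on both strands: besides those spelled out above, NR4A AAAGGTCA, TCF-LEF CTTTGAA, KLF GGGTGTGG, CACGTG, ATF4-CHOP TGATGNAAT, NF-kB GGGANTTCC, AGATAA of GATA factors, CTCF AGGGGGC, SP GGGGCGGGG, and BATF-IRF, NFAT-AP-1, IRF and NRF1 motifs. Alternatives were equal numbers of top peaks, a stricter q of 0.001, other overlap rules and leaving out each library. Some genes are not reported here.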

Additional observations from a re-analysis of the deposited data

Results flagged for a closer look

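Tumour replicate 2 held 18011 regions found in no other LC3-GFP negative library, far from the other 3 tumours (364 to 1975): the gap to the nearest was 0.909 of the range of the 4 values, above Dixon's 95% limit for 4 samples. Its mean Jaccard index with the other tumours, 0.409, was also lowest, with a gap of 0.809, under that limit. About 1 in 20 groups passes this limit by chance, and 9 measures were looked at.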

How the results depend on the processing

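Against 595 gained regions, ranking equal numbers of peaks by fold enrichment gave 1351, asking for 3 of 4 tumours gave 2017, equal peaks without tumour replicate 2 gave 3795, and leaving out 1 library gave 692 to 1656. Against 8509 lost regions, these were 5049, 13861 (at most 1 tumour), 5172 and 8716 to 14212, and equal peaks by q-value gave 4122. A q of 0.001, an overlap of 50% of the shorter peak and summit windows kept both counts within 1.5 times. The difference in covered bases turned to 1.55 Mb (tumour minus before) with equal peaks by fold enrichment, and that in promoter share to -0.0712 points with equal peaks by q-value. Sharing with positive libraries was 7.92% of gained and 68.7% of lost regions with equal peaks, 18.6% and 70.0% when replicate 2 was also left out, and 57.7% of lost regions without replicate 2 alone. For the shares with equal peaks, cut negative lists were set against whole positive ones. Genes with a gained region numbered 441 and 1673 with equal peaks (with and without replicate 2), 707 without replicate 2 and 26 by promoters only, and genes with a lost region 1917 with equal peaks and 221 by promoters only. The cause of these shifts was not tested, apart from fewer peaks or samples by construction. Of 93 named genes with more of 1 kind of region, 49 kept that kind and 44 had no excess with equal peaks, and with replicate 2 also left out 7 turned to gained: Cd247, Nfatc2, Runx3, Bach1, Batf3, Klre1 and Zbtb7b. No paired analysis was possible because the calls come from no fit and the labels tie no tumour to a library before transfer. Unknown read depth limits all absences: a missing peak may be a weak one.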

Other observations

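Gained and lost regions seldom lay side by side as they do at Prdm1. Of 595 gained regions, 11 (1.85%) had a lost region within 1 kb and 52 (8.74%) within 5 kb, against 0.814% and 5.83% of always-open regions. Without tumour replicate 2 these were 2.23% and 11.7%, against 1.11% and 8.27%. Il12rb2 had such a pair 2.93 kb apart.

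A gained region at chr11:87758656-87760823 lay within 2 kb of Mir142, a microRNA gene of blood cells, with and without tumour replicate 2. Its mean rank by fold enrichment in the tumour libraries was 99.87% from the top, so its peaks were among the weakest called there. Without tumour replicate 2 a gained region at chr4:88909383-88910456 lay within 2 kb of Mir31, another microRNA gene.

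Genes with gained regions only were listed in the RNA table before transfer in 74.2% of cases (118 of 159), those with lost regions only in 79.7% (2607 of 3272), those with both in 93.1% and all genes with a region in 75.2%. Without tumour replicate 2 the shares were 70.9%, 76.7%, 90.5% and 77.8%, so lost-only genes no longer lay above all genes.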
